A study of Hynobius leechii and Hynobius unisacculus and Hynobius quelpaertensis with 23 samples.

Results

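Intestine was compared with liver in Hynobius leechii, a salamander of Korea, in the lineages HC1 and LE. The comparison holds 8 of the series' 23 libraries: the 2 intestines of these lineages and the 6 livers counted in the same 2 tables. All animals were wild-caught adults without treatment, and polyadenylated RNA of whole tissue was sequenced. HC1 comprised livers of the animals mms7664, mms7665 and mms7666 and the intestine of mms7665, and LE comprised livers of mms7728, mms7729 and mms7730 and the intestine of mms7730. Each lineage thus had 3 livers and 1 intestine, and each intestine came from an animal whose liver was also sequenced. The labels give no age in years, gut segment or feeding state, and the extraction text speaks of embryos although every sample is labelled as adult tissue. Every gene symbol found in both tables was used, which was 6479 of 10077 symbols in HC1 and of 8084 in LE. Levels are counts per 1000000 named counts of a library in its own table (CPM), so that the tissue ratio is always taken within 1 table.

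The vertebrate intestine is lined by absorptive cells with a brush border of microvilli, by goblet cells that secrete mucus and by scattered hormone cells, and is wrapped in smooth muscle. Hepatocytes make most plasma proteins, including the clotting factors, break down amino acids and export bile salts. The functions given below for single genes are known mainly from human and mouse, and the symbols were taken as the tables give them.

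The intestines were the shallowest libraries, with 2216003 counts in HC1 and 1967812 in LE, against 8672566 to 17372471 in the 6 livers. A symbol with no count in an intestine could still have been present at up to 1.35 CPM in HC1 or 1.52 CPM in LE, the level of 3 counts. Both livers from the animals that also gave an intestine, mms7665 and mms7730, stood apart from the other libraries. Among their counts from 1 to 19, 46.0% and 48.1% were odd numbers, against 11.3% to 19.4% in the other 6 libraries. In these 2 odd-count livers 40.8% and 29.8% of symbols were at 0 although they were the deepest libraries, against 6.36% to 15.9% of symbols in the others. The adjusted p of each called gene described is therefore given with them and in a reduced fit without them. The same was done for most log2 fold changes and counts of calls. A symbol also need not stand for the same sequence in both tables: the mean liver level differed by over 100-fold between HC1 and LE for 830 of 6088 symbols (13.6%), and by less than 10-fold for 3786 (62.2%). MT-CYB, a mitochondrial gene, was at 9908 to 37717 CPM in the HC1 livers and at 0 to 0.21 CPM in the LE livers.

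Called genes that were higher in the intestine included those for the mucin MUC2, the cadherin CDH17, the sodium pump subunit ATP1B2 and the smooth muscle myosin MYH11. Called genes that were lower included those for the plasma protein AMBP, the bile salt pump ABCB11 and the tryptophan enzyme TDO2. Of 6088 symbols tested with edgeR's quasi-likelihood test, 227 passed an adjusted p of 0.05 (3.73%). Of these, 189 rose (3.1%) and 38 fell (0.624%), where a rise or fall is a called difference of intestine from liver. In each of the 227 the intestine lay outside the range of the 3 livers of its own table, in the same direction in both. An unadjusted p under 0.05 was reached by 1427 of the 6088 symbols. Without a model, the intestine lay above all 3 livers in both tables for 2217 symbols (36.4%) and below them for 466 (7.65%). The share of rises depended on the scaling: the median log2 fold change of all 6088 symbols was 1.19 with library totals and 0.46 with TMM factors, and rises made up 83.3% of 227 calls with totals and 55.3% of 94 calls with TMM.

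The calls leaned on single libraries. Without both odd-count livers 489 symbols of 6017 were called, of which 416 rose (6.91%) and 73 fell (1.21%), and 219 were among the 227. Without the HC1 liver of mms7664 edgeR called 28 symbols, all among the 227. Without that of mms7666 it called 82, of which 75 were among the 227. Without the LE liver of mms7728 edgeR called 0 symbols, with 1038 at an unadjusted p under 0.05 and a smallest adjusted p of 0.0508. Without the LE liver of mms7729 it called 26. Leaving out either intestine keeps 1 library of that tissue, which gives no spread between intestines. The median log2 fold change of the symbols tested was then 0.78 without the HC1 and 0.76 without the LE intestine, beside 1.19 with both. The fit over all 8 libraries with DESeq2 called 1196. With the animal as a block edgeR called 0 symbols, with 118 at an unadjusted p under 0.05 and a smallest adjusted p of 0.851. In that fit only the 2 animals with both tissues bear on the tissue difference, and their livers are the odd-count libraries. The block also leaves few libraries to estimate the spread, so its 0 calls say little about the tissue difference. All 24 genes named by the rule for the largest folds kept their sign under the block and without the liver of mms7728, but none kept its call.

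**Figure D1:**
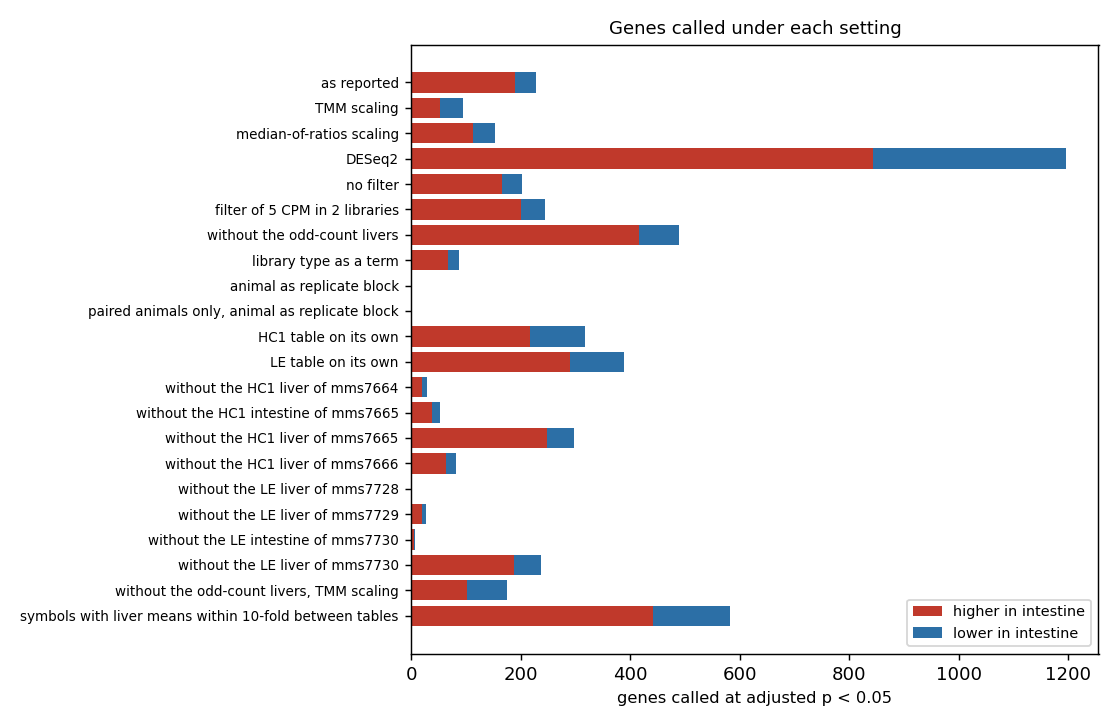
Genes called at an adjusted p under 0.05 (x axis, number of genes) under each setting (y axis), split into those higher (red) and lower (blue) in intestine. The count is 227 as reported, 489 without both odd-count livers and 0 with the animal as a block or without the LE liver of mms7728.

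Across all 6088 symbols the log2 ratio of intestine to liver in HC1 had a Pearson correlation of 0.25 with that in LE. Over the 2135 symbols whose mean liver level differed by less than 2-fold between the tables it was 0.77, and over the 3786 within 10-fold it was 0.65. These are descriptions across genes, which are not independent replicates, and liver level enters both the selection and the ratio. Of the 227 called symbols, 183 were within 10-fold and 8 were over 100-fold apart. When only the symbols within 10-fold were tested, 441 of 3786 rose (11.6%) and 141 fell (3.72%).

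**Figure D2:**
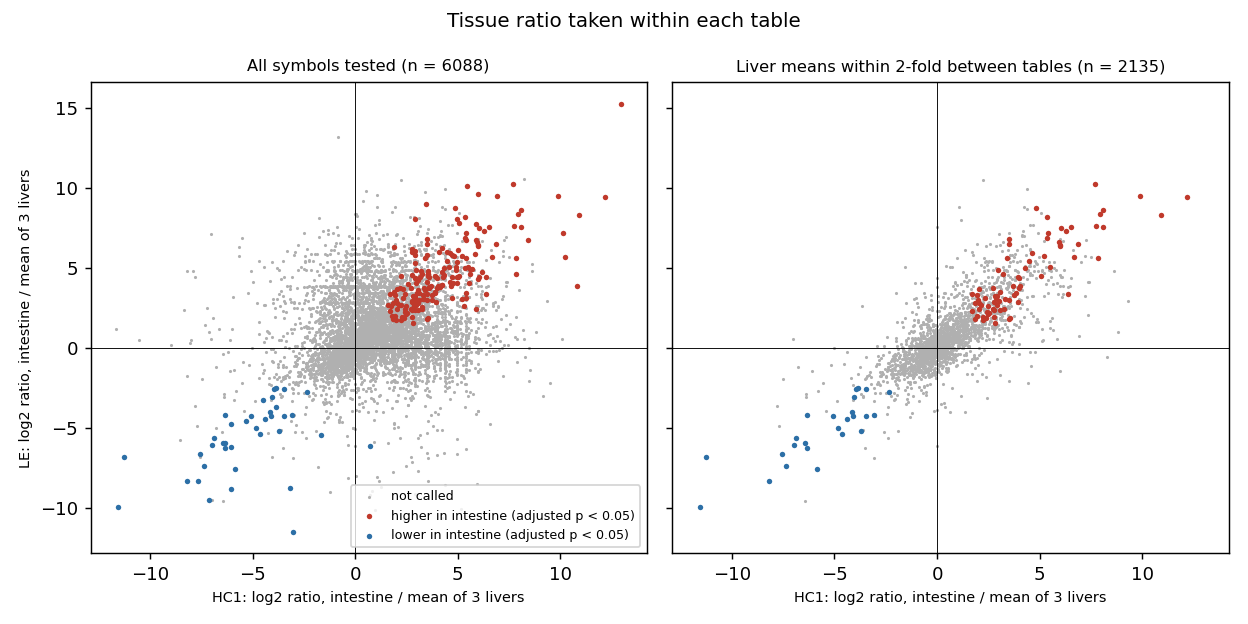
Log2 ratio of the intestine to the mean of the 3 livers in HC1 (x axis) and in LE (y axis), 1 point per symbol, for all 6088 symbols tested (left) and for the 2135 with liver means within 2-fold between the tables (right). Called symbols are coloured, and where a tissue had 0 counts the ratio is drawn against the level of 3 counts. A symbol with 0 counts in an intestine and a liver mean below that level is therefore drawn as a rise, such as NPTX2 at 0.70 in HC1. The points follow the diagonal more closely on the right, with Pearson correlations of 0.25 on the left and 0.77 on the right.

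A mucus gene had the largest rise among genes that met the naming rule. MUC2, the main gel-forming mucin of mammalian gut mucus, was at 12091 CPM in the HC1 intestine and at 2.77, 0 and 1.74 CPM in the HC1 livers of mms7664, mms7665 and mms7666. In LE the MUC2 level was 14023 CPM in the intestine and 0.42, 0.66 and 0 CPM in the livers of mms7728, mms7729 and mms7730. Both intestines were close to each other, and every liver was near or at 0. The log2 fold change was 14.30 ± 1.91 (SE, adjusted p = 0.0141) with all livers and 13.60 ± 1.06 (adjusted p = 0.0149) without the odd-count livers. In bulk tissue, fewer cells of a type and less RNA per cell cannot be told apart, here and in all results below.

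OTOGL, whose product is an otogelin-like protein with mucin-related domains, was at 1484 CPM in the HC1 intestine against 0 to 2.06 CPM in the livers. In the LE intestine OTOGL reached 3816 CPM, against 41.4 and 34.6 CPM in the livers of mms7728 and mms7729 and 1.61 CPM in that of mms7730. OTOGL rose by 9.04 ± 1.69 on the log2 scale (adjusted p = 0.0361, or 8.34 and 0.0149 in the reduced fit), and its call was lost with TMM scaling (adjusted p = 0.0778). FCGBP, a mucus protein that binds MUC2, was at 2621 CPM in the HC1 intestine against 0.24 to 37.2 CPM in the livers, and at 508 CPM in the LE intestine against 0.058 to 6.40 CPM. FCGBP did not pass with all livers (log2 7.16, adjusted p = 0.0597) and passed without the odd-count livers, in which it was lowest (log2 6.57, adjusted p = 0.0149).

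AGR2, an endoplasmic reticulum protein that mouse goblet cells need to make MUC2, rose by 6.30 ± 1.30 on the log2 scale (adjusted p = 0.048, or 6.39 and 0.0466 in the reduced fit), at 1.81 CPM in the HC1 intestine and 42.2 CPM in the LE intestine against at most 0.46 CPM in a liver. The HC1 level of AGR2 rests on few counts, close to the 3-count level. ZG16, a lectin of goblet cell granules, was at 114 and 1231 CPM in the HC1 and LE intestines against 0 to 23.1 CPM in the livers (log2 6.67, adjusted p = 0.123). MUC13, a membrane mucin, was at 1747 CPM in the LE intestine but at 1.81 CPM in the HC1 intestine, within the range of its livers (adjusted p = 0.16). Over the 7 goblet cell and mucus genes tested, 2 rose and 0 fell, beside 3.1% and 0.624% of all symbols. Without the odd-count livers 3 rose, beside 6.91%. With TMM scaling 1 rose, beside 52 of 6088 symbols. It was MUC2 (adjusted p = 0.0331), so AGR2 lost its call. With all livers kept, 6 lay above every liver in both tables, beside 36.4% of all symbols. Among these, GALNT3 and GALNT12 rested on 2 and 6 counts in the LE intestine. The list's median log2 fold change was 6.67, beside 1.19 over all symbols. MUC3A, a membrane mucin chosen after its values were seen, rose by 6.36 ± 1.04 (adjusted p = 0.0231, or 6.19 and 0.0149 in the reduced fit), with 203 CPM in the HC1 and 78.3 CPM in the LE intestine against at most 4.82 CPM in a liver.

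**Figure D3:**
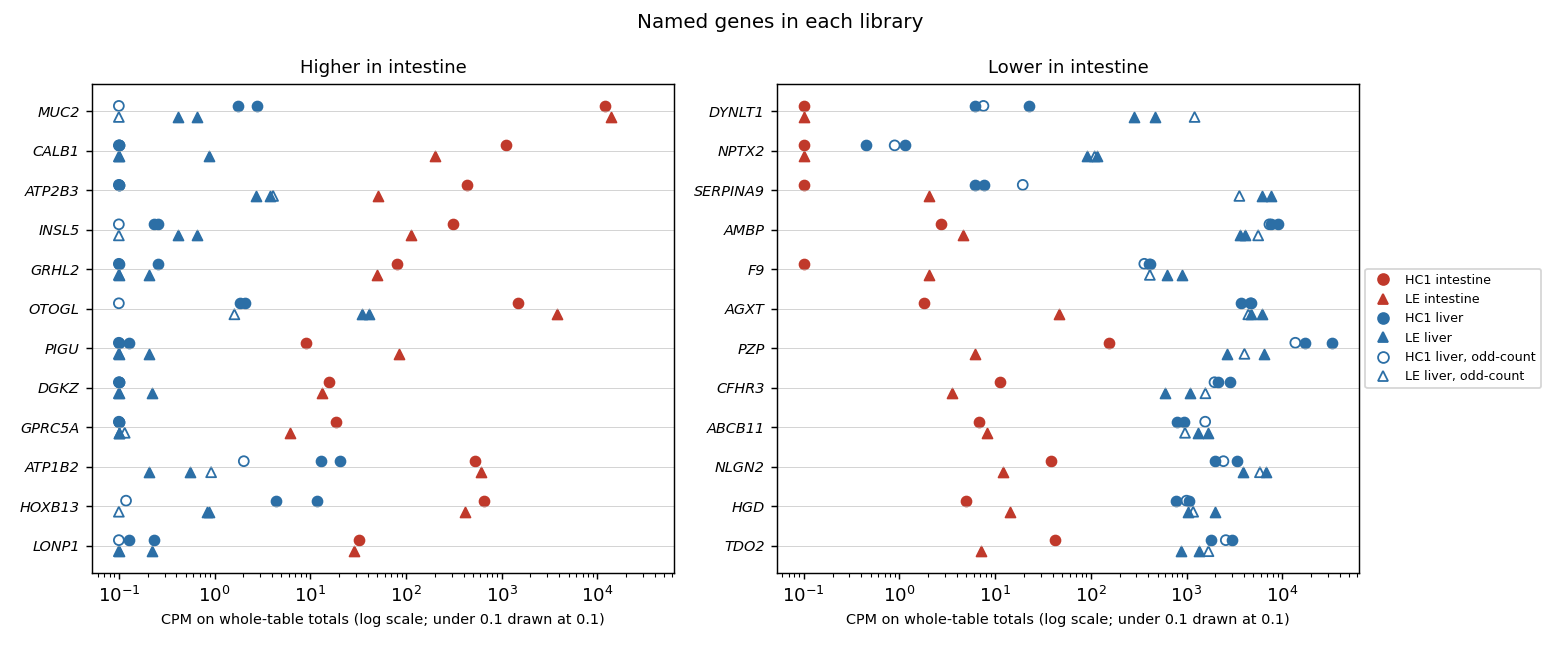
Level in each of the 8 libraries (x axis, CPM on a log scale) of the 12 genes with the largest rises (left) and the 12 with the largest falls (right) that met the naming rule. Circles are HC1 and triangles LE, red is intestine, blue is liver and open symbols are the odd-count livers. MUC2 is at 12091 and 14023 CPM in the intestines and at or below 2.77 CPM in every liver, while AMBP is at or below 4.57 CPM in the intestines and at or above 3649 CPM in every liver.

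HOXB13 and INSL5, which in mammals are expressed in the hind part of the gut, were among the 12 largest rises. HOXB13, a homeobox gene of the posterior body, was at 655 CPM in the HC1 intestine against 11.9, 0.12 and 4.38 CPM in the livers of mms7664, mms7665 and mms7666. The LE intestine held 410 CPM of HOXB13 and its livers 0.83, 0.88 and 0 CPM. HOXB13 rose by 8.45 ± 1.63 on the log2 scale (adjusted p = 0.0392, or 0.0149 without the odd-count livers), and missed the threshold with TMM scaling (adjusted p = 0.0815). INSL5, an insulin-like hormone made by cells of the mammalian colon, was at 311 CPM in the HC1 intestine and 114 CPM in the LE intestine, against at most 0.66 CPM in any of the 6 livers (log2 9.78 ± 1.32, adjusted p = 0.0141, or 9.03 and 0.0149 in the reduced fit).

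HOXA13, another posterior homeobox gene, which was singled out after its values were seen, was at 11.7 and 7.62 CPM in the intestines. It was at or below 0.23 CPM in the livers and did not pass (log2 6.97, adjusted p = 0.0597). It passed without the odd-count livers (adjusted p = 0.038). LGR4, a receptor of the intestinal crypt, was at 92.5 and 62.0 CPM in the HC1 and LE intestines against 8.32 to 40.4 CPM in the livers (adjusted p = 0.0722, or 0.0324 without the odd-count livers). Of the 12 tested genes in the list of gut and crypt regulators, 1 rose and 0 fell, beside 3.1% and 0.624% of all symbols. Without the odd-count livers 2 rose and 0 fell, beside 6.91% and 1.21%. With TMM scaling 0 rose, beside 52 of 6088 symbols. The intestine lay above all livers in both tables for 5 of the 12 and below for 1, beside 36.4% and 7.65% of all symbols. Among those above, RNF43 rested on 4 counts in the HC1 intestine and KLF4 on 8 counts in the LE intestine. The gene below was GATA4, at 1.81 CPM in the HC1 intestine against 12.4 to 30.8 CPM in its livers. In LE, GATA4 was at 29.98 CPM in the intestine against 40.1 to 63.5 CPM in the livers. NXPE4, a gene expressed in the human colon that was singled out after its values were seen, rose by 6.84 ± 0.92 (adjusted p = 0.0141, or 6.40 and 0.0258 in the reduced fit), at 281 and 118 CPM in the HC1 and LE intestines against 0.21 to 14.8 CPM in the livers.

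Among genes of the absorptive cells, CDH17 and PLS1 rose, while MTTP lay below all livers in both tables without passing the test. CDH17, the liver-intestine cadherin, was at 3842 CPM in the HC1 intestine and at 18.4, 7.07 and 8.56 CPM in the HC1 livers. Its LE levels were 4442 CPM in the intestine and 55.6, 39.1 and 27.3 CPM in the livers. No library of one tissue came near the other, and CDH17 rose by 7.70 ± 0.67 on the log2 scale (adjusted p = 0.0109, or 7.43 and 0.0149 in the reduced fit). PLS1, a bundling protein of microvilli, was at 1513 CPM in the LE intestine against 22.0 to 31.8 CPM, but at 4.51 CPM in the HC1 intestine against 0 to 0.69 CPM (log2 4.93 ± 1.04, adjusted p = 0.0499, or 4.78 and 0.0345 in the reduced fit). EZR, which ties microvilli to the membrane, was at 1340 and 1077 CPM in the intestines against 62.3 to 354 CPM in the livers (log2 2.80, adjusted p = 0.0516). MTTP, which loads lipid onto lipoproteins, was at 1.81 CPM in the HC1 intestine against 82.6 to 196 CPM and at 14.7 CPM in the LE intestine against 95.2 to 119 CPM (log2 -4.05, adjusted p = 0.0756). MGAM, a starch-digesting enzyme, was at 2.54 CPM in the LE intestine against 253 to 1322 CPM in its livers, and at 5.42 CPM in the HC1 intestine against 0 to 3.69 CPM (adjusted p = 0.894). Of the 14 tested genes of the enterocyte list, 2 rose and 0 fell, beside 3.1% and 0.624% of all symbols. Without the odd-count livers 3 rose and 0 fell, beside 6.91% and 1.21%. With TMM scaling 1 rose and 0 fell, beside 52 and 42 of 6088 symbols. DESeq2 on all livers called 4 higher and 1 lower, beside 844 and 352 of 5910 symbols. The intestine lay above all livers in both tables for 7 of the 14 and below for 1, beside 36.4% and 7.65% of all symbols. Among those above, VIL1, USH1C, EPS8 and MALL rested on 2 to 6 counts in the HC1 intestine. The list's median of 1.60 stood beside 1.19 for all symbols. The 14 shared symbols summed to 5398 CPM in the HC1 intestine against 275 to 568 CPM in its livers, and to 7855 CPM in the LE intestine against 992 to 1977 CPM. Over all list symbols of a table the sums were 18229 against 374 to 612 CPM in HC1, of which CUBN, found in that table only, gave 12174 CPM in the intestine. In LE they were 8582 against 8054 to 8210 CPM, of which the lipoprotein APOA4, found in that table only, gave 6232 to 7189 CPM in the livers and 28.0 CPM in the intestine.

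CALB1 and ATP2B3, which bind and pump calcium, were among the 12 largest rises. CALB1, the calcium-binding protein calbindin, was at 1115 CPM in the HC1 intestine with 0 counts in all 3 livers, which makes it at least 4661-fold higher against the level of 3 counts per library, averaged over the livers. In LE the CALB1 level was 199 CPM in the intestine and 0.88 CPM in the liver of mms7729, with 0 counts in the other 2. CALB1 rose by 13.19 ± 2.10 on the log2 scale (adjusted p = 0.0218, or 11.98 and 0.0345 in the reduced fit), a fitted value that depends on the zeros. TRPV6, an epithelial calcium channel chosen after its values were seen, was at 51.0 and 144 CPM in the HC1 and LE intestines and at most 0.83 CPM in a liver (log2 8.18 ± 1.26, adjusted p = 0.0204, or 7.53 and 0.0149 in the reduced fit). ATP2B3, a plasma membrane calcium pump, was at 437 CPM in the HC1 intestine with 0 counts in its livers, at least 1827-fold higher, and at 50.8 CPM in the LE intestine against 2.71, 3.75 and 4.09 CPM, a 14.5-fold difference. The ATP2B3 call (log2 11.40 ± 2.40, adjusted p = 0.0499) was lost without the odd-count livers (adjusted p = 0.072).

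ATP1B2, a beta subunit of the sodium pump, was at 524 CPM in the HC1 intestine against 12.8, 2.02 and 20.5 CPM, and at 615 CPM in the LE intestine against 0.21, 0.55 and 0.92 CPM. The intestines were close to each other, whereas the livers of HC1 stood above those of LE, and ATP1B2 rose by 8.59 ± 1.33 on the log2 scale (adjusted p = 0.0207, or 8.52 and 0.0357 in the reduced fit). CA2, a carbonic anhydrase, was at 1260 and 982 CPM in the HC1 and LE intestines and at 12.3 to 172 CPM in the livers (log2 4.32 ± 0.85, adjusted p = 0.041, or 5.20 and 0.0319 in the reduced fit). SCNN1B, a subunit of the epithelial sodium channel, was at 418 CPM in the HC1 intestine against 18.1 to 59.3 CPM and at 189 CPM in the LE intestine against 0.058 to 0.62 CPM (log2 7.35 ± 1.43, adjusted p = 0.0393, or 6.44 and 0.0476 in the reduced fit). ATP1B1, the other sodium pump beta subunit among the list's 4 members with most counts, was at 494 and 349 CPM in the intestines against 64.8 to 254 CPM (log2 1.71, adjusted p = 0.0928).

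Of 17 tested genes for ion pumps, channels and water, 3 rose and 0 fell, beside 3.1% and 0.624% of all symbols, or 6 and 0 without the odd-count livers, beside 6.91% and 1.21%. The intestine lay above all livers in both tables for 11 of the 17, beside 36.4% of all symbols, and the median log2 fold change was 2.94, beside 1.19. Among those above, SCNN1A, KCNN4 and SLC34A2 rested on 2, 3 and 1 counts in the LE intestine. With TMM scaling 1 of the 17 rose, beside 52 of 6088 symbols. It was ATP1B2 (adjusted p = 0.0414), so CA2 and SCNN1B lost their calls. ATP1B3, a further sodium pump beta subunit, lay below all livers in both tables, at 65.0 CPM in the HC1 intestine against 93.2 to 134 CPM and 46.2 CPM in the LE intestine against 61.4 to 87.0 CPM (adjusted p = 0.315). ATP12A, a proton and potassium pump of the mammalian colon chosen after its values were seen, rose by 4.60 ± 0.63 (adjusted p = 0.0141, or 4.37 and 0.0182 in the reduced fit), at 1453 and 98.1 CPM in the HC1 and LE intestines against 8.22 to 47.0 CPM. SLC4A1, the anion exchanger of red cells and of acid-base transporting epithelia, rose by 4.28 ± 0.79 (adjusted p = 0.0352, or 4.82 and 0.0255 in the reduced fit), at 553 and 393 CPM against 8.76 to 106 CPM. SLC4A1 stood in the list of red cell genes, in which HBB moved the other way. With TMM scaling 0 genes of that list rose, so SLC4A1 lost its call.

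Of the smooth muscle genes, MYH11, CNN1 and TAGLN rose. MYH11, the smooth muscle myosin heavy chain, was at 1246 CPM in the HC1 intestine against 31.0, 40.2 and 29.8 CPM in the HC1 livers. In LE the MYH11 level was 1625 CPM in the intestine against 33.1, 42.3 and 13.2 CPM in the livers. The livers of both lineages overlapped and the intestines were close, and MYH11 rose by 5.51 ± 0.55 on the log2 scale (adjusted p = 0.0109, or 5.39 and 0.0149 in the reduced fit). CNN1, an actin-binding calponin, rose by 4.66 ± 0.53 (adjusted p = 0.0109, or 4.38 and 0.0149 in the reduced fit), with 314 and 397 CPM in the intestines and 7.94 to 20.3 CPM in the livers. TAGLN, transgelin, rose by 2.87 ± 0.40 (adjusted p = 0.0141, or 2.81 and 0.0222 in the reduced fit), with 118 and 376 CPM in the HC1 and LE intestines against 13.6 to 61.8 CPM. DES, the muscle filament desmin, was at 227 and 743 CPM against 32.5 to 112 CPM and did not pass (adjusted p = 0.0541, or 0.041 in the reduced fit). Of 11 tested genes of the smooth muscle list, 3 rose and 0 fell, beside 3.1% and 0.624% of all symbols. The intestine lay above all livers in both tables for 10 of the 11, beside 36.4% of all symbols, and the median of 2.71 stood beside 1.19. The exception was PDLIM7, at 14.2 CPM in the LE intestine against 15.6 to 33.7 CPM in its livers. The HC1 intestine levels of FLNA, CSRP1, CALD1, TPM1 and MYL9 rested on only 2 to 8 counts. At that depth a few counts can exceed the CPM of a deeper liver, so these positions in HC1 are poorly known. Without the odd-count livers 4 rose, beside 6.91% of all symbols, and with TMM scaling 2 rose, beside 52 of 6088 symbols.

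Among genes of epithelial junctions and simple keratins, GRHL2 and KRT8 rose. GRHL2, a transcription factor of epithelial cells, was at 80.8 and 49.3 CPM in the HC1 and LE intestines and at most 0.26 CPM in a liver (log2 9.49 ± 1.31, adjusted p = 0.0144, or 8.81 and 0.0156 in the reduced fit). KRT8, a keratin of simple epithelia, was at 9747 CPM in the HC1 intestine against 1118, 777 and 874 CPM and at 4817 CPM in the LE intestine against 667, 162 and 329 CPM. KRT8 was present in every liver and still rose by 3.52 ± 0.58 on the log2 scale (adjusted p = 0.0218, or 3.42 and 0.0473 in the reduced fit). Of 19 tested junction and simple keratin genes, 3 rose and 0 fell, beside 3.1% and 0.624% of all symbols. Without the odd-count livers 5 rose, beside 6.91%. With TMM scaling 1 rose, beside 52 of 6088 symbols. It was GRHL2 (adjusted p = 0.0351), so KRT8 lost its call. The intestine lay above all livers in both tables for 14 of the 19, beside 36.4% of all symbols. Among these, KRT18 and CLDN2 rested on 2 and 4 counts in the HC1 intestine. SPINT2 and EPCAM rested on 2 and 4 counts in the LE intestine, so these positions are poorly known. All 19 had a positive log2 fold change, with a median of 2.67 beside 1.19 over all symbols. Paralogous keratins could share reads, and how the authors counted such reads is not given in the sources used here.

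Among markers of stratified epithelium, PPL and SDC1 rose. PPL, the plakin periplakin, rose by 3.22 ± 0.57 (adjusted p = 0.0286, or 3.15 and 0.0379 in the reduced fit), at 2071 CPM in the HC1 intestine against 146 to 241 CPM and at 104 CPM in the LE intestine against 6.45 to 22.7 CPM. SDC1, a heparan sulphate proteoglycan of epithelia, rose by 4.96 ± 0.91 (adjusted p = 0.0335, or 4.78 and 0.036 in the reduced fit), at 421 CPM in the LE intestine against 6.87 to 18.2 CPM, and at 1.81 CPM in the HC1 intestine against at most 0.23 CPM. Of 18 tested members of the list, 2 rose and 0 fell, beside 3.1% and 0.624% of all symbols. Without the odd-count livers 5 rose and 0 fell, beside 6.91% and 1.21%. With TMM scaling 0 rose, beside 52 of 6088 symbols, so PPL and SDC1 lost their calls. The whole list of 34 symbols in the HC1 table summed to 25429 CPM in the intestine against 916 to 1410 CPM in the livers, and the 19 symbols in the LE table to 1935 CPM against 300 to 463 CPM. In HC1 the single symbol SFN, also a general epithelial gene, gave 19835 CPM of that sum. The basal keratinocyte genes KRT5 and COL17A1 were at 8.12 and 3.61 CPM in the HC1 intestine, against 2949 and 1214 CPM in the skin library of the same animal. Other members were higher there: ITGB4, EVPL and DSP were at 353, 327 and 1676 CPM in the HC1 intestine. Their HC1 liver levels were at most 15.5, 9.02 and 231 CPM, and their skin levels 692, 4461 and 13923 CPM. In LE, KRT5 was at 597 CPM in the intestine against 37.2 to 163 CPM in the livers (log2 fold change 2.25 over both lineages, adjusted p = 0.262). A part of skin RNA in these results was not tested.

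CHIT1, a chitin-degrading enzyme, took 10.96% of all counts of the HC1 intestine. CHIT1 stood at 109650 CPM there, against 1234, 1725 and 986 CPM in the livers of mms7664, mms7665 and mms7666. In the LE intestine CHIT1 was at 10910 CPM, against 1011, 1524 and 655 CPM in the livers of mms7728, mms7729 and mms7730. The livers of both lineages overlapped, and the intestines were 83.4-fold and 10.3-fold above their mean in HC1 and LE. CHIT1 rose by 5.27 ± 0.78 on the log2 scale (adjusted p = 0.0177, or 5.25 and 0.0428 in the reduced fit), and lost the call with TMM scaling (adjusted p = 0.0539). The difference of its fold between the lineages did not pass (log2 -3.02 for LE minus HC1, adjusted p = 0.396). GAL3ST1, a sulphotransferase of glycolipids, was at 22703 and 9072 CPM in the HC1 and LE intestines against 184 to 3107 CPM in the livers and rose by 4.14 ± 0.78 (adjusted p = 0.0374, or 4.14 and 0.0369 in the reduced fit).

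Of the plasma carriers and inhibitors, AMBP and PZP fell. AMBP, the precursor of alpha-1-microglobulin and bikunin, was at 9108, 7347 and 7672 CPM in the HC1 livers and at 2.71 CPM in the HC1 intestine. In LE, AMBP was at 3649, 4050 and 5609 CPM in the livers and at 4.57 CPM in the intestine. The livers and intestines were far apart in both lineages, and AMBP fell by 10.62 ± 1.02 on the log2 scale (adjusted p = 0.0109, or -10.55 and 0.0149 in the reduced fit). PZP, a protease inhibitor of the alpha-2-macroglobulin family, was at 13703 to 33323 CPM in the HC1 livers against 157 CPM, and at 2633 to 6478 CPM in the LE livers against 6.10 CPM (log2 -8.02 ± 1.20, adjusted p = 0.0177, or -8.27 and 0.0275 in the reduced fit). SERPINA9, a serine protease inhibitor, was at 3566 to 7620 CPM in the LE livers against 2.03 CPM, but only at 6.23 to 19.4 CPM in the HC1 livers against 0 counts, at least 8.21-fold lower (log2 -11.43 ± 1.42, adjusted p = 0.012, or -11.66 and 0.0149 in the reduced fit). Of 25 tested plasma carriers and inhibitors, 0 rose and 2 fell, beside 3.1% and 0.624% of all symbols. Without the odd-count livers 0 of them rose and 4 fell, beside 6.91% and 1.21%. Their median log2 fold change was 0.04, beside 1.19 over all symbols. AFM, the vitamin E carrier afamin, was at 89579 to 129780 CPM in the HC1 livers and 1875 CPM in the HC1 intestine, but at 6.85 to 332 CPM in the LE livers and 85.4 CPM in the LE intestine.

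Of the clotting genes, FGB, F9, PLG and F13B fell. FGB, the fibrinogen beta chain, was at 23843, 12261 and 33855 CPM in the HC1 livers and 356 CPM in the HC1 intestine. Its LE levels were 40567, 37081 and 91135 CPM in the livers and 2103 CPM in the intestine. FGB fell by 5.32 ± 0.96 on the log2 scale (adjusted p = 0.0309, or -5.14 and 0.0398 in the reduced fit). F9, clotting factor IX, was at 362 to 419 CPM in the HC1 livers with 0 counts in the intestine, at least 292-fold lower, and at 414 to 895 CPM in the LE livers against 2.03 CPM, 316-fold lower (log2 -9.32 ± 1.31, adjusted p = 0.0151, or -9.49 and 0.0219 in the reduced fit). PLG, plasminogen, fell by 4.98 ± 0.80 (adjusted p = 0.0211, or -4.80 and 0.0348 in the reduced fit), and F13B, the carrier subunit of factor XIII, fell by 6.15 ± 0.81 (adjusted p = 0.0131, or -6.35 and 0.0149 in the reduced fit). These were the 4 of 17 tested clotting genes that fell, beside 0.624% of all symbols. Without the odd-count livers 5 fell, beside 1.21%, and none rose in either fit. With all livers 10 of the 17 had a positive log2 fold change, and the median was 0.85, beside 1.19 over all symbols. In the remaining members, levels often differed between the tables: the fibrinogen chain FGA was at 18573 to 27671 CPM in HC1 livers and at 0 to 2.29 CPM in LE livers, and FGG was at 0 to 8.07 CPM in HC1 livers and at 25506 to 31333 CPM in LE livers. Among the 4 clotting symbols with liver means within 10-fold between the tables, all fell, beside 3.72% of such symbols in the fit limited to them.

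CFHR3, a complement factor H-related protein, was at 1960 to 2831 CPM in the HC1 livers against 11.3 CPM and at 597 to 1575 CPM in the LE livers against 3.56 CPM (log2 -7.94 ± 0.91, adjusted p = 0.011, or -7.83 and 0.0149 in the reduced fit). Reads of CFHR3 may be shared with other members of its family. Of 19 tested genes in the complement list, which does not hold CFHR3, edgeR called 0. An unadjusted p under 0.05 was reached by 7 of them, beside 1427 of 6088 symbols. DESeq2 called 4 higher and 3 lower, beside 844 and 352 of 5910 symbols. Without the odd-count livers edgeR called 2 higher and 3 lower, beside 6.91% and 1.21% of all symbols. C3 and C9, the central complement protein and a pore protein, illustrate the list. C3 was at 20356 to 25878 CPM in the LE livers and 552 CPM in the LE intestine, yet at or below 2.71 CPM in every HC1 library. C9 was at 9062 to 12705 CPM in the HC1 livers and 306 CPM in the HC1 intestine, yet at or below 4.07 CPM in every LE library.

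The amino acid enzymes AGXT, HGD, TDO2 and KMO fell, while NAGS rose. AGXT, which detoxifies glyoxylate in peroxisomes of the liver, was at 3719 to 4736 CPM in the HC1 livers and at 4422 to 6120 CPM in the LE livers. The AGXT level was 1.81 CPM in the HC1 intestine and 46.8 CPM in the LE intestine (log2 -8.10 ± 1.44, adjusted p = 0.0309, or -8.36 and 0.0371 in the reduced fit). HGD, of tyrosine breakdown, fell by 7.05 ± 0.83 (adjusted p = 0.0113, or -7.10 and 0.0165 in the reduced fit), from 780 to 1984 CPM in the livers to 4.96 and 14.2 CPM in the HC1 and LE intestines. TDO2, which opens tryptophan breakdown in liver, fell by 6.56 ± 0.91 (adjusted p = 0.0141, or -6.48 and 0.0231 in the reduced fit), from 871 to 3004 CPM to 42.0 and 7.11 CPM. KMO, a later enzyme of that pathway, fell by 4.90 ± 0.78 (adjusted p = 0.0207, or -4.67 and 0.0253 in the reduced fit), from 126 to 374 CPM to 9.03 and 6.10 CPM.

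NAGS, which makes the activator of the first urea cycle enzyme, was at 4154 CPM in the HC1 intestine against 552 to 652 CPM and at 2450 CPM in the LE intestine against 745 to 860 CPM. NAGS rose by 2.26 ± 0.48 (adjusted p = 0.0487), and did not pass without the odd-count livers (log2 2.22, adjusted p = 0.0708) or with TMM scaling. OTC, a urea cycle enzyme, was at 863 and 1148 CPM in the intestines against 1458 to 2819 CPM in the livers (log2 -1.18, adjusted p = 0.226). Of 40 tested genes of the urea cycle and amino acid list, 1 rose and 4 fell, beside 3.1% and 0.624% of all symbols. Without the odd-count livers 0 rose and 5 fell, beside 6.91% and 1.21%. The list's median log2 fold change was -0.19, beside 1.19 over all symbols.

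Of the bile acid genes, ABCB11, SLC51A and BAAT fell. ABCB11, the bile salt export pump, was at 795, 1567 and 947 CPM in the HC1 livers and at 6.77 CPM in the HC1 intestine, a 163-fold difference. Its LE levels were 1682, 1329 and 964 CPM in the livers and 8.13 CPM in the intestine, again 163-fold. The ratios of both lineages were alike, and ABCB11 fell by 7.35 ± 0.83 on the log2 scale (adjusted p = 0.0109, or -7.26 and 0.0149 in the reduced fit). SLC51A, a subunit of a bile acid transporter that in mammals is abundant in the ileum, fell by 6.45 ± 0.79 (adjusted p = 0.0118, or -6.44 and 0.0176 in the reduced fit), from 564 to 1027 CPM in the livers to 7.22 and 11.2 CPM in the HC1 and LE intestines. BAAT, which joins bile acids to amino acids, fell by 5.02 ± 0.86 (adjusted p = 0.0262, or -4.94 and 0.0326 in the reduced fit), from 160 to 314 CPM to 2.71 and 14.2 CPM. CYP7A1, which starts bile acid synthesis in mammalian liver, was at 1808 CPM in the HC1 intestine against 308 to 696 CPM in its livers, and at 5.08 CPM in the LE intestine against at most 0.88 CPM (log2 2.96, adjusted p = 0.17). Of 14 tested genes of the list, 0 rose and 3 fell, beside 3.1% and 0.624% of all symbols. Without the odd-count livers 1 rose and 4 fell, beside 6.91% and 1.21%.

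In the group of detoxifying enzymes, CYP1A1, an inducible cytochrome P450, was at 54.6 CPM in the HC1 intestine against 1149, 9900 and 2114 CPM in the livers, and at 15.2 CPM in the LE intestine against 1155, 732 and 885 CPM. The highest liver was the odd-count liver of mms7665, and CYP1A1 fell by 6.12 ± 1.23 with all livers (adjusted p = 0.0436) and by 5.39 without the odd-count livers (adjusted p = 0.0255). GSTP1, a glutathione transferase of many epithelia, rose by 3.21 ± 0.59 (adjusted p = 0.0316, or 3.04 and 0.0499 in the reduced fit), at 2614 and 1528 CPM in the HC1 and LE intestines against 96.1 to 413 CPM in the livers. POR, the electron donor of these P450 enzymes, was at 418 and 804 CPM against 1344 to 2993 CPM (log2 -1.93, adjusted p = 0.115). Of 24 tested genes of the list 1 rose and 1 fell, beside 3.1% and 0.624% of all symbols. Without the odd-count livers 1 rose and 3 fell, beside 6.91% and 1.21%. With TMM scaling 0 rose and 0 fell, beside 52 and 42 of 6088 symbols, so CYP1A1 and GSTP1 lost their calls. DESeq2 called 5 higher and 5 lower, beside 844 and 352 of 5910 symbols. ELOVL2, an elongase of long polyunsaturated fatty acids, fell by 3.83 ± 0.63 (adjusted p = 0.0218, or -3.99 and 0.0222 in the reduced fit). It was the 1 call among 23 genes of fatty acid and cholesterol synthesis, beside 3.73% of all symbols called and 0.624% that fell.

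**Figure D4:**
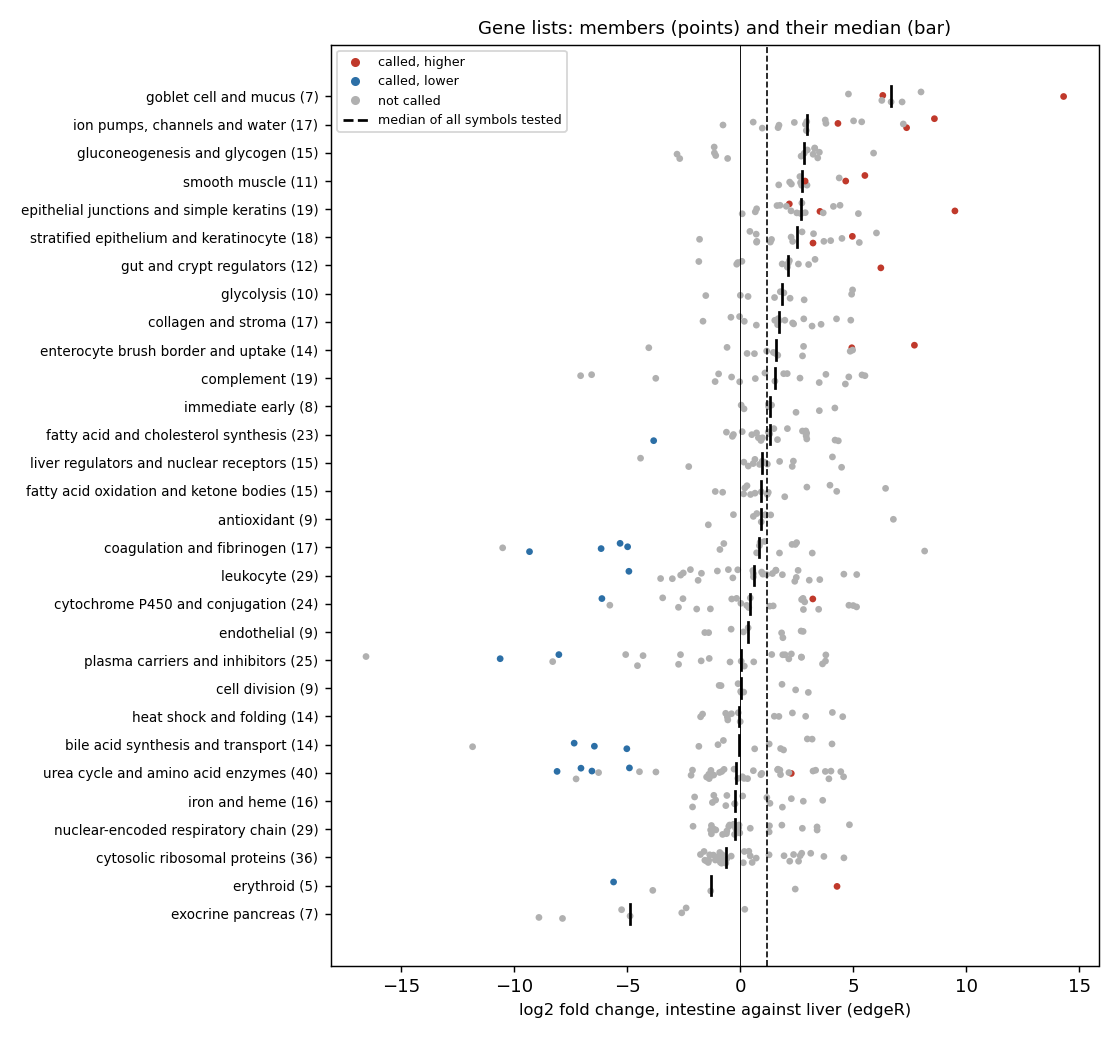
Log2 fold change of intestine against liver (x axis) of the tested members (points) of each gene list with at least 5 of them (y axis, number tested in brackets), with the list's median as a black bar. Red and blue points are called higher and lower, grey points are not called, and the dashed line is the median of all symbols, 1.19. The mucus list has its median at 6.67, and falls stand in the clotting, plasma, amino acid and bile acid lists.

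Some of the largest folds belonged to genes outside these lists. PIGU, a subunit of the enzyme that attaches lipid anchors to proteins, rose by 8.95 ± 1.35 (adjusted p = 0.0191, or 8.23 and 0.0222 in the reduced fit), at 9.03 and 84.4 CPM in the HC1 and LE intestines. LONP1, a mitochondrial protease, rose by 8.29 ± 1.26 (adjusted p = 0.0191, or 7.62 and 0.0162 in the reduced fit), at 32.5 and 28.5 CPM. DGKZ, a diacylglycerol kinase, rose by 8.74 ± 1.43 (adjusted p = 0.0235, or 7.93 and 0.0258 in the reduced fit), at 15.8 and 13.2 CPM, and GPRC5A, a membrane receptor without a known ligand, rose by 8.62 ± 1.41 (adjusted p = 0.0234, or 0.0481 in the reduced fit), at 18.5 and 6.10 CPM. All 4 were at or below 0.23 CPM in every liver, so their fitted folds depend on a few counts, the smallest intestine value being 12 counts for GPRC5A. PIGU and LONP1 belong to processes of every cell, and whether their symbols stand for whole genes in both tables was not tested.

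Among the falls outside the lists, NLGN2, a cell adhesion protein named for its place at synapses, was at 2004 to 3402 CPM in the HC1 livers against 38.8 CPM and at 3902 to 6699 CPM in the LE livers against 12.2 CPM (log2 -7.11 ± 1.10, adjusted p = 0.0191, or -7.22 and 0.0319 in the reduced fit). DYNLT1, a dynein light chain, had 0 counts in both intestines, against 6.11 to 22.4 CPM in the HC1 livers, at least 8.88-fold higher, and 282 to 1214 CPM in the LE livers, at least 430-fold higher (adjusted p = 0.0296, or 0.0277 in the reduced fit). NPTX2, a pentraxin, also had 0 counts in both intestines (adjusted p = 0.0165, or 0.0305 in the reduced fit). In LE its livers stood at 90.2 to 116 CPM, at least 69.2-fold higher, but the NPTX2 levels of 0.45 to 1.15 CPM in the HC1 livers were below the 3-count level of the HC1 intestine, so no fall was detectable there.

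Among markers of blood and immune cells, HBB and PLEK fell, while SLC4A1, described above, rose. HBB, a haemoglobin beta chain, was at 1518 to 5400 CPM in the LE livers against 83.3 CPM in the LE intestine, and at 2.88 to 5.80 CPM in the HC1 livers with 0 counts in the HC1 intestine (log2 -5.60 ± 1.05, adjusted p = 0.0339, or -5.17 and 0.0406 in the reduced fit). The red cell list, 11 symbols in the LE table, summed to 5763 to 17162 CPM in the LE livers and 1109 CPM in the LE intestine. Its 7 symbols in the HC1 table summed to 625 to 892 CPM in the livers and 663 CPM in the intestine. Most of that HC1 intestine sum was SLC4A1, at the level given above. PLEK, pleckstrin of platelets and leukocytes, fell by 4.93 ± 0.65 (adjusted p = 0.0138, or -4.78 and 0.0162 in the reduced fit), from 34.3 to 114 CPM in the livers to 2.71 and 2.03 CPM. It was the 1 call among 29 leukocyte genes, beside 3.73% of all symbols called and 0.624% that fell. Without the odd-count livers 1 leukocyte gene rose and 1 fell, beside 6.91% and 1.21%. The leukocyte list summed to 1967 to 2766 CPM in the HC1 livers against 917 CPM in the intestine, and to 1245 to 3302 CPM in the LE livers against 1130 CPM.

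Pancreatic enzyme transcripts differed widely between livers. In the LE table the 13 pancreas symbols summed to 22449 CPM in the liver of mms7728, 544 CPM in that of mms7729, 55.7 CPM in that of mms7730 and 911 CPM in the intestine. In HC1 the 14 symbols summed to 2176 to 6847 CPM in the livers and 173 CPM in the intestine. PRSS1, a trypsinogen, was at 10995 CPM in the liver of mms7728 and had 0 counts in the LE intestine. The liver of mms7728 is the library without which no gene was called, and a part of pancreatic RNA in that loss was not tested. With edgeR 0 of 7 tested pancreas genes were called and 1 was at an unadjusted p under 0.05. DESeq2 called 3 lower, beside 352 of 5910 symbols. Without the odd-count livers 1 fell in edgeR, beside 1.21% of all symbols.

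**Figure D5:**
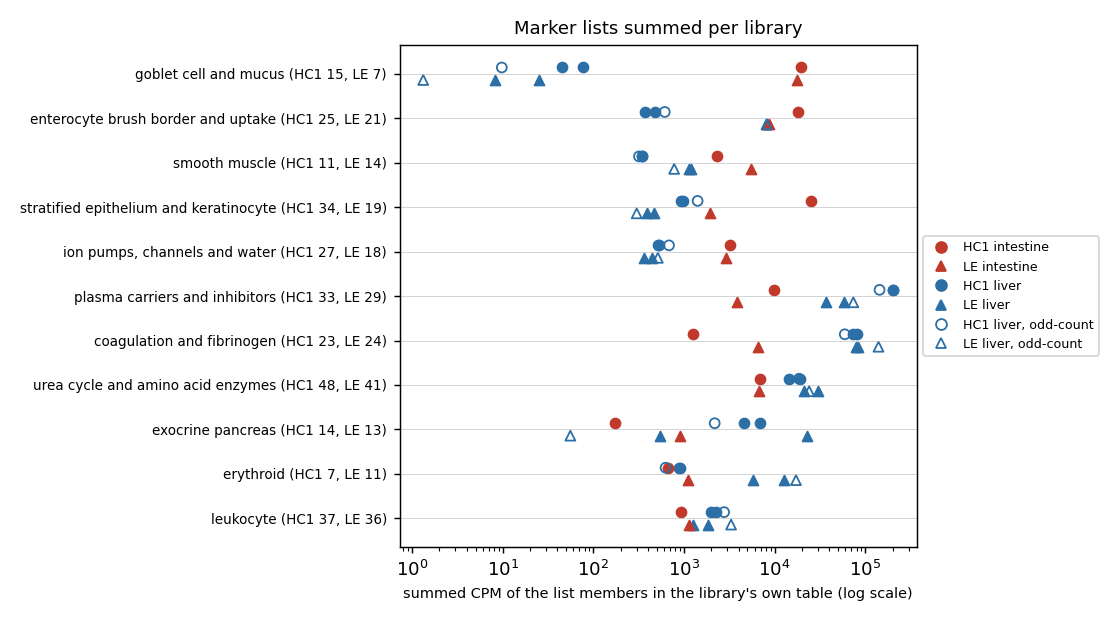
Summed CPM (x axis, log scale) of all members of 11 marker lists (y axis, with the number of symbols in the HC1 and LE tables) in each library. Circles are HC1, triangles LE, red intestine, blue liver, open symbols the odd-count livers. Mucus markers separate intestine from liver in both tables, the LE enterocyte sums of 8582 CPM in intestine and 8054 to 8210 CPM in liver include APOA4, at 6232 to 7189 CPM in the livers, and the pancreas sum is highest in the LE liver of mms7728, at 22449 CPM.

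Groups used by every cell were read beside the 3.73% of all symbols that edgeR called and the 1196 of 5910 that DESeq2 called. In the edgeR fit 1427 of 6088 symbols were at an unadjusted p under 0.05. Among 36 cytosolic ribosomal protein genes, 29 nuclear-encoded genes of the respiratory chain, 10 glycolytic genes, 15 genes of fatty acid oxidation and 14 chaperone genes edgeR called 0, with 8, 4, 3, 6 and 3 at an unadjusted p under 0.05 in that order. DESeq2 called 3 higher and 11 lower among the ribosomal protein genes and 3 higher and 8 lower in the respiratory chain. It called 3 higher and 1 lower among the glycolytic genes, 4 and 2 in fatty acid oxidation and 1 and 1 among the chaperone genes. Over all symbols DESeq2 called 844 higher and 352 lower of 5910. A fit over symbols with liver means within 10-fold of each other in the 2 tables held 21 ribosomal protein genes. It called 1 of them higher and 5 lower, beside 11.6% and 3.72% of such symbols. In the reduced edgeR fit 2 ribosomal protein genes, 2 glycolytic genes, 2 genes of fatty acid oxidation and 1 chaperone gene rose. The share over all symbols in that fit was 6.91%. The median log2 fold changes of the ribosomal protein and respiratory chain lists were -0.62 and -0.25, beside 1.19 over all symbols. LDHA, a lactate dehydrogenase subunit, was at 696 and 898 CPM in the intestines against 1180 to 2170 CPM in the livers (log2 -1.08, adjusted p = 0.24). COX4I1, a subunit of cytochrome oxidase, was at 538 and 470 CPM in the intestines against 579 to 828 CPM in the livers (log2 -0.47, adjusted p = 0.564).

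The remaining lists held little. CHIT1 was the 1 call among 4 gastric genes, and edgeR called 0 in each of the others with all livers. Without the odd-count livers 1 gene of gluconeogenesis and glycogen fell, beside 1.21% of all symbols, and 1 melanin gene rose, beside 6.91%. Over all 6088 symbols edgeR called 227 and had 1427 at an unadjusted p under 0.05, and DESeq2 called 1196 of 5910. The lists of liver regulators and of gluconeogenesis and glycogen, with 15 genes tested in each, had 4 genes each at an unadjusted p under 0.05, and DESeq2 called 3 and 5 of the genes in either direction. Of 17 genes of collagen and stroma 3 were at an unadjusted p under 0.05 and DESeq2 called 2, and of 16 iron and heme genes and 9 endothelial genes 1 each was, and DESeq2 called 2 in each list. FTL, a ferritin chain of the iron list, was at 785 and 2477 CPM in the HC1 and LE intestines against 1925 to 14717 CPM in the livers (log2 -2.11, adjusted p = 0.227). Of 9 antioxidant genes and 2 melanin genes 1 each was at an unadjusted p under 0.05, and DESeq2 called 1 in each. The 2 enteroendocrine, 3 skeletal muscle, 2 neuron, 4 mitochondrially encoded and 9 cell division genes had 0 at an unadjusted p under 0.05 and 0 calls with DESeq2.

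Whether the tissue difference itself differed between HC1 and LE was asked with an interaction term. The edgeR fit called 0 of 6088 symbols (0%), with 570 at an unadjusted p under 0.05, while DESeq2 called 463 of 5604, and edgeR called 185 of 6017 without the odd-count livers. Each lineage had a single intestine, so the spread behind this test came from the livers alone. In 687 symbols (11.3%) the intestine lay outside its livers in opposite directions in HC1 and LE. PSMD8, a proteasome subunit, was at 61995 CPM in the LE intestine against 290 to 402 CPM in its livers, but at 181 CPM in the HC1 intestine, within the 135 to 214 CPM of its livers (log2 difference 7.52 ± 0.96, adjusted p = 0.221). CXCL12, a chemokine of stromal cells, was at 25116 CPM in the HC1 intestine against 145 to 369 CPM, but at 1251 CPM in the LE intestine, within the 859 to 1773 CPM of its livers (adjusted p of the difference = 0.231).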

How the data were processed

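The deposited files hold raw read counts that the authors made per gene symbol and library, 1 table per lineage, per the file headers, and BWA and SAMtools are named in the submitters' processing notes without version or counting rule. How reads of near-identical genes were assigned is not given in the sources used here. Of 6 tables, 2 were used. Libraries were assigned from titles, which match the column names, because in 7 of 8 descriptions the table named belongs to a different lineage, and 0 columns were left unmapped. The row named NoName, which held 0.169% of counts or less, was left out. CPM are counts per 1000000 named counts of a table and carry no correction for length, so levels are compared within a gene. Depth was 1967812 to 17372471 counts, and an intestine with 0 counts was taken as holding up to 3 counts. In libraries with mostly even low counts this may be too low, and it covers counting error only.

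Counts of symbols in both tables were tested in R 4.3.3 with edgeR 4.0.16 (filterByExpr with a minimum count of 10, library sizes set to named totals, glmQLFit with robust estimation, glmQLFTest) in a model of lineage plus tissue. Benjamini-Hochberg adjustment ran over 6088 symbols, with calls made under 0.05, and every adjusted p in the text is from edgeR unless DESeq2 1.42.0 is named. The SE was taken from the size of a log2 fold change and the root of its F statistic. The script was tested on simulated data. Named genes were the 12 largest rises and 12 largest falls among called symbols with a change of at least 1 on the log2 scale, an intestine outside its 3 livers in both tables and at least 10 CPM in the higher tissue, plus called members and the 4 members with most counts of 36 lists. Some genes that these rules name are counted but are not reported here. Members, lists and rules were chosen with earlier results of these data known. Intestine and liver of mms7665 and of mms7730 are paired, as the labels give the same animal. Nothing says that the livers of a lineage were handled separately, so p-values measure only the spread between these samples. Alternatives were TMM and median-of-ratios scaling, DESeq2, other filters, each table alone, each library left out, the animal as a block, a term for odd-count libraries and a fit without them. Chosen after seeing the data were the fit without odd-count livers with TMM scaling, the symbols with liver means within 10-fold, and the count of intestines outside their livers with the odd-count livers left out. The odd-count limit was a share of 0.3 of odd values among counts up to 19.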

Additional observations from a re-analysis of the deposited data

Results flagged for a closer look

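In RPL10A and RPL7, ribosomal protein genes of the large subunit, the HC1 intestine lay below all 3 livers and the LE intestine above all 3. The log2 ratio of intestine to liver of RPL10A was -1.09 in HC1 and 4.09 in LE, with 1265 CPM in the HC1 intestine against 2060 to 3141 CPM and 43205 CPM in the LE intestine against 2163 to 3251 CPM. The log2 ratio of RPL7 was -1.57 in HC1 and 1.92 in LE, with 1574 CPM against 4245 to 5265 CPM and 16712 CPM against 3826 to 5434 CPM. With edgeR the difference between the lineages did not pass for RPL10A (adjusted p = 0.231) or RPL7 (adjusted p = 0.268). Both have many relatives with similar sequence, and how the authors' counting assigned their reads is not given.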

How the results depend on the processing

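The 227 calls became 94 with TMM scaling, 152 with median-of-ratios scaling, 1196 with DESeq2, 489 without the odd-count livers, 175 without them and with TMM scaling, 87 with a term for library type, 389 in the LE table and 317 in the HC1 table on its own, and 582 among symbols with liver means within 10-fold. With the animal as a replicate block edgeR called 0 symbols (118 at an unadjusted p under 0.05), and 0 in paired animals only (112). A term for every animal leaves few libraries to estimate the spread, so these 0 calls say little about the tissue difference. Leaving out 1 library gave 0 (LE liver of mms7728) to 297 calls (HC1 liver of mms7665). The filters gave 203 and 245. The interaction gave 463 calls with DESeq2 and 185 without the odd-count livers, and 0 under the other edgeR settings, each liver left out included (no intestine can be left out of this term), with 482 to 783 symbols at an unadjusted p under 0.05. With TMM scaling the intestine lay above all livers in both tables for 1318 symbols and below for 898, and without the odd-count livers below for 719. With 1 liver left out, those counts ran from 2277 to 2408 above and from 494 to 591 below. Leaving out a liver can only narrow the range of the livers, so these counts could not become smaller. The log2 fold change of RPL10A reversed to -1.09 in HC1 alone and ran from -1.09 to 4.09 with 1 library left out. That of RPL7 reversed to -1.57 in HC1 alone, -0.067 with TMM scaling and -0.42 with TMM scaling without the odd-count livers, and ran from -1.57 to 1.92. That of CXCL12 reversed to -0.20 in LE alone and ran from -0.20 to 6.54. The cause of these changes was not tested.

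Of the 24 genes with the largest folds, 20 kept their call with TMM scaling, 24 with DESeq2 and 23 without the odd-count livers. The library type term kept 13 of them, and 0 to 23 kept it with 1 liver left out. ATP2B3, OTOGL, DGKZ and HOXB13 lost the call with TMM scaling. Of all 56 called genes named in the text, 34 kept it with TMM scaling and 25 with the library type term. DESeq2 kept 56 and the fit without the odd-count livers 54. Over all genes named with a test and all settings, 1086 values kept direction and side of the threshold, 506 lost the call with the same sign, 59 gained one and 8 changed sign. With 1 intestine per lineage, of 2216003 and 1967812 counts, the level of a gene near 0 is poorly known.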

Other observations

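Several gut symbols could not be compared because they were in 1 table. CUBN, a receptor for vitamin B12 uptake in the mammalian ileum, was at 12174 CPM in the HC1 intestine against 0 to 0.46 CPM in the HC1 livers. CLDN7, a claudin of tight junctions, was at 49684 CPM in the LE intestine against 2.82 to 5.74 CPM in the LE livers. FABP6, an ileal bile acid-binding protein in mammals, was at 456 CPM in the LE intestine against 0 to 0.12 CPM in its livers. PMEL, a pigment cell protein, was at 22279 CPM in the odd-count HC1 liver of mms7665, against 1820 and 2247 CPM in the other HC1 livers, 2417 CPM in the intestine and 3734 CPM in the skin of the same animal. These symbols were singled out after their values were seen, and none was tested.

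Immediate early genes, which respond quickly to growth signals, gave 0 calls among 8 with edgeR with all livers, without the odd-count livers and with TMM scaling. With all livers 3 were at an unadjusted p under 0.05, beside 1427 of 6088 symbols. DESeq2 called 3 higher, beside 844 of 5910 symbols. All 8 had a positive log2 fold change, with a median of 1.32 beside 1.19 over all symbols. KLF2, one of them, was at 49.6 and 70.1 CPM in the HC1 and LE intestines against 5.19 to 20.2 CPM in the livers (log2 2.46, adjusted p = 0.0689). The list's 15 symbols in the HC1 table summed to 2799 CPM in the HC1 intestine against 302 to 405 CPM in its livers. Its 9 symbols in the LE table summed to 2448 CPM in the LE intestine against 569 to 895 CPM. The 8 symbols found in both tables summed to 104 CPM in the HC1 intestine against 21.0 to 46.0 CPM in its livers. In LE these 8 summed to 2306 CPM in the intestine against 218 to 277 CPM.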
